A study of Rattus norvegicus with 12 samples.

Results

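Proteasome subunit genes were followed in cultures of rat cerebellar granule neurons, the small excitatory neurons of the cerebellar cortex. The genes were those whose single symbol in the array's probe table begins with Psm, one of the letters a to g and a number, which gave 46 genes with 60 probe sets among 14218 named genes. Of the 46, 44 encode proteasome proteins: 7 alpha and 9 beta subunits of the core particle, 6 ATPases and 14 non-ATPase proteins of the regulatory particle, 3 activators, 1 inhibitor and 4 assembly chaperones. Psmc3ip and Psme3ip1 also fit the spelling, but encode proteins named for binding a proteasome protein. Their values are described apart, yet both are included in the counts and medians of proteasome genes below. Psmb6 and Psme3 were left out because their probe sets carry several symbols. A probe set shared by Psma3 and Psma3l (mean intensity 1772.6) was left out too, and its change is not shown. It was brighter than the Psma3 probe set used (1046). The samples were total RNA on 12 arrays, with 3 per group and 4 groups: GW5074 at 6 h, low potassium at 6 h, GW5074 at 3 h and low potassium at 3 h. GW5074 is a small-molecule kinase inhibitor, and lowering potassium is a standard way to set off the death of these neurons. Whether GW5074 was given in low potassium as well is not stated. Without a labelled raised-potassium or untreated group, a response to treatment between 3 h and 6 h cannot be told from longer culture. Strain and age are not stated. Arrays are lettered A to C within a group. Since it is not stated that these are separate cultures, p-values here reflect a spread that may be technical. The title of the GW5074 6 h array of letter A ends in a suffix unlike the other 11, and it was used as labelled.

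The proteasome degrades proteins that carry ubiquitin chains. Its barrel-shaped core particle is built of outer alpha rings that gate the entrance and inner beta rings that hold the cutting sites, while the regulatory particle recognises ubiquitin, removes it and unfolds the protein with a ring of ATPases. In neurons the same system turns over synaptic, cytoskeletal and cell death proteins, and its subunit genes are often regulated together.

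All values below are deposited intensities on a linear scale unless called log2, and 45 of the 46 genes could be tested, since the probe set of Psmb8 was too dim. Log2 changes were taken from quantile-normalised values with 16 added, each with its standard error (SE), and a gene was called when limma's p, adjusted by Benjamini-Hochberg over the 18625 probe sets tested, was below 0.05. Defining granule neuron genes were present on every array. Times were parted along principal component 1 (54.7% of the variance): the 3 h arrays lay between -0.0844 and 0.115, the 6 h arrays of letter B at 0.628 with GW5074 and 0.691 in low potassium, and the other 6 h arrays between 1.1 and 1.23. Over all probe sets tested, the GW5074 and low-potassium arrays of one letter deviated together within each time, which is why pairs are given below. Among the 45 proteasome genes alone, these deviations correlated at -0.0114 for letter A at 3 h. In the other pairs they correlated at 0.323 to 0.711. Between arrays of a group, the proteasome genes had a median SD of 0.121 on the log2 scale, against 0.219 over the 10260 genes tested. Those include dimmer genes, and the spread was not compared with that of genes of like intensity. In bulk RNA, fewer cells of a type and less RNA per cell cannot be told apart.

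Between 6 h and 3 h, more proteasome genes fell than rose in both treatments. With GW5074, 10 of the 45 genes fell (22.2%, against 14.1% of all genes) and 0 rose (against 13.5%). In low potassium, 8 fell (17.8%, against 14.1%) and 3 rose (6.67%, against 11.5%). At an unadjusted p under 0.05, 15 were lower (against 20.9% of all genes) and 2 higher (19.8%) with GW5074, and 13 were lower (21.8%) and 3 higher (17.9%) in low potassium. The falls were of modest size, between -0.28 and -0.73 on the log2 scale with GW5074. The median log2 change of the 45 genes was -0.21 with GW5074, where that of all genes was -0.02, and -0.15 in low potassium, where that of all genes was -0.04. On the normalised scale, all 3 arrays at 6 h lay below all 3 at 3 h for 22 proteasome genes with GW5074 (48.9%, against 22.1% of all genes) and above them for 3 (6.67%, against 21.4%). In low potassium they lay below for 14 (31.1%, against 23.2%) and above for 3 (6.67%, against 19.1%).

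Calls were more frequent among genes as bright as these. The 1785 genes between the lower and upper quartile of the proteasome genes' mean intensity (446.1 to 1514) were called lower in 22.4% with GW5074 and 20.2% in low potassium, and higher in 17.6% and 15.7%. The shares of proteasome genes that fell were therefore close to those of the genes in that range, while the shares that rose were below theirs. The medians of the 1785 genes were -0.05 with GW5074 and -0.06 in low potassium, with 54.8% and 55.2% below 0. Those of the 45 genes were -0.21 and -0.15, with 80% and 64.4% below 0. The 1785 include the proteasome genes of that range, and the 45 reach beyond it. None of these differences was tested. The counts of falls also rested on single arrays. With GW5074 the 10 became 6 without the 6 h array of letter A or without the 3 h array of letter A. In low potassium the 8 became 3 without the 6 h array of letter C or the 3 h array of letter B, and 5 without either array of letter A. The 3 that rose in low potassium became 1 without the 3 h array of letter B.

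**Figure D1:**
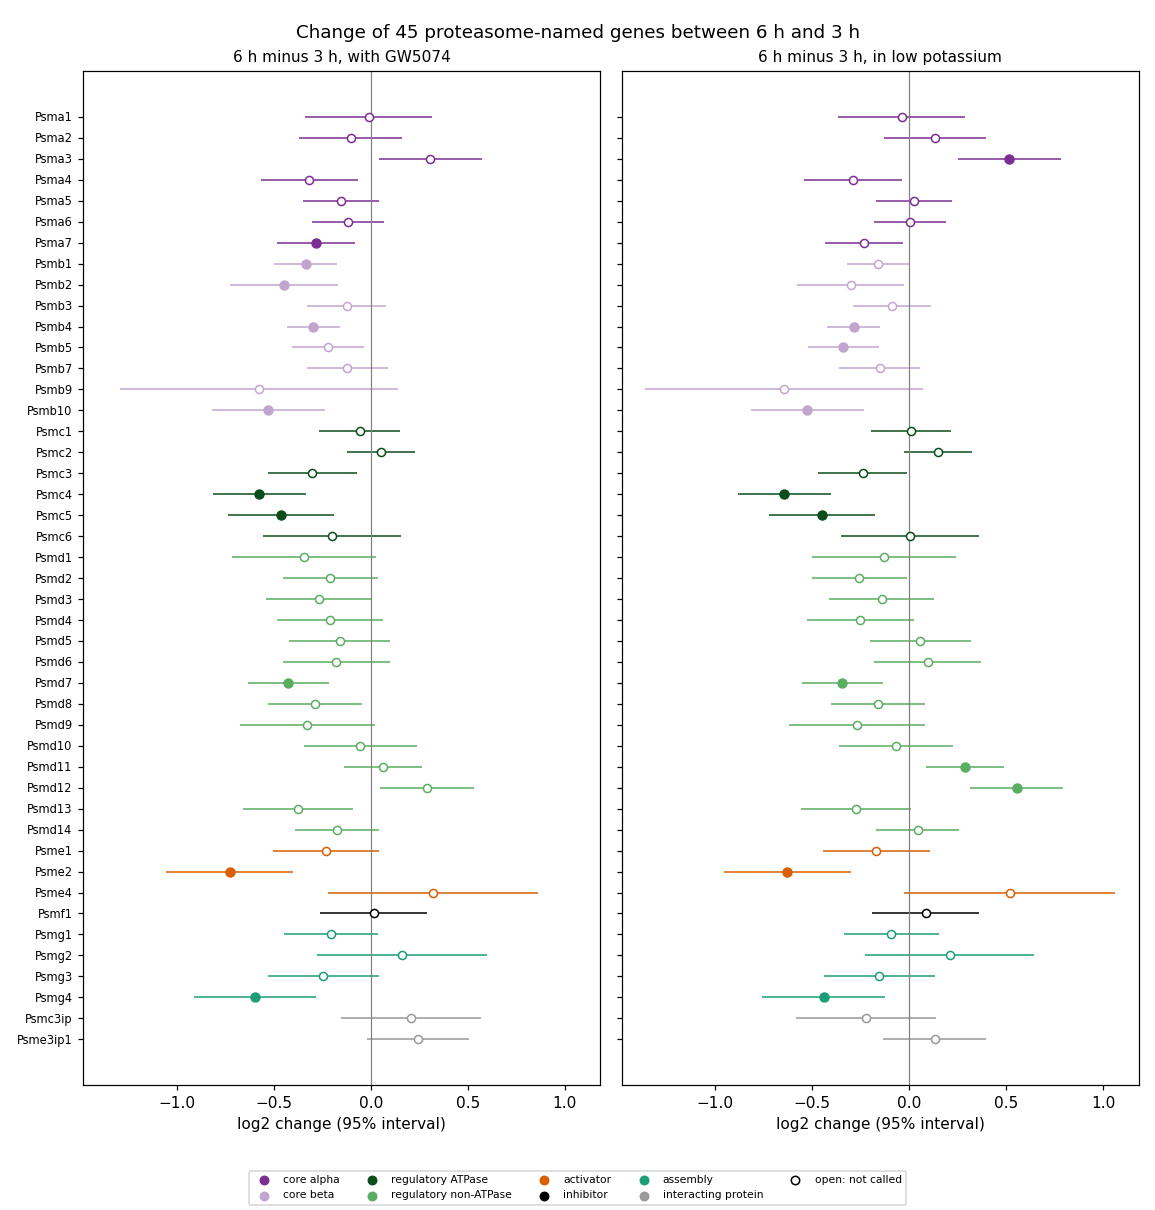
Log2 change between 6 h and 3 h of the 45 genes tested, with GW5074 on the left and in low potassium on the right. Points are estimates from limma, lines are 95% intervals, filled points are called and colours give the subunit class; all 8 beta subunits lie below 0 in both panels.

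Of the 7 alpha subunits, which form the outer rings, 1 fell with GW5074 (14.3%, against 14.1% of all genes) and 1 rose in low potassium (14.3%, against 11.5%). With GW5074, Psma7 measured 1539, 1856 and 1670.1 at 6 h, against 2318, 2358 and 2120.5 at 3 h. The low-potassium values of Psma7 were 1729.5, 2001 and 1591 at 6 h, against 2245, 2200.5 and 2362 at 3 h. The groups did not overlap in either treatment, yet only the change with GW5074 was called (-0.28 ± 0.09 SE on the log2 scale, adjusted p = 0.041 from limma), and that in low potassium was not (-0.23 ± 0.09, adjusted p = 0.0858). The Psma7 call ended without any 1 of 5 of the 6 arrays of the contrast, all but the 6 h array of letter B (adjusted p up to 0.162, without the 6 h array of letter A).

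Psma3 moved the other way. With GW5074, Psma3 measured 1144, 996 and 1220.2 at 6 h, against 971, 857 and 948 at 3 h. Psma3 in low potassium measured 1380.5, 1186 and 1152 at 6 h, against 1009, 800.4 and 884 at 3 h. Every 6 h array lay above every 3 h array of its treatment. The rise was called in low potassium (0.52 ± 0.12 SE on the log2 scale, 1.43-fold, adjusted p = 0.00979 from limma) and not with GW5074 (0.31 ± 0.12, adjusted p = 0.0865); without the low-potassium 3 h array of letter B the adjusted p was 0.0547. The other 5 alpha subunits were not called, with log2 changes between -0.32 (Psma4) and -0.01 (Psma1) with GW5074, and between -0.29 (Psma4) and 0.13 (Psma2) in low potassium.

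The beta subunits carry the cutting sites and moved most evenly. All 8 tested had a lower mean log2 value at 6 h in both treatments, where 51.7% of all genes did with GW5074 and 54.3% in low potassium. With GW5074 4 fell (50%, against 14.1% of all genes), and in low potassium 3 fell (37.5%, against 14.1%). Among the 1785 genes of like intensity, 22.4% and 20.2% fell. The medians of the 8 were -0.32 and -0.29. As the median deviation of the 8 from each gene's own mean over the 12 arrays, they stood at -0.2, -0.161 and -0.149 in the GW5074 arrays at 6 h and at 0.182, 0.154 and 0.0781 in those at 3 h. In low potassium they stood at -0.0209, -0.0881 and -0.178 at 6 h and at 0.186, 0.166 and 0.103 at 3 h. The 2 times did not overlap on this measure in either treatment.

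Psmb4, a structural subunit, fell in both treatments. With GW5074, Psmb4 measured 3302, 3543 and 3569.5 at 6 h, against 5010.5, 5013 and 4495 at 3 h. At 6 h in low potassium it measured 3685, 3602 and 3692, against 4945, 4817 and 4895 at 3 h. The times were far apart against the spread within a group, at -0.30 ± 0.06 SE on the log2 scale with GW5074 (adjusted p = 0.0049 from limma) and -0.29 ± 0.06 in low potassium (adjusted p = 0.00663). Without the mean-variance trend in limma these adjusted p became 0.0673 and 0.0784.

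Psmb5 holds the chymotrypsin-like site, the main target of proteasome inhibitor drugs. With GW5074, Psmb5 measured 2301, 2147 and 2135 at 6 h, against 2976, 2835 and 2754 at 3 h. Its low-potassium arrays gave 2375, 2059.5 and 2036 at 6 h, against 3021, 3014 and 2895 at 3 h. No 6 h array reached the 3 h arrays of its treatment. The fall was called in low potassium (-0.34 ± 0.09 SE on the log2 scale, 1.26-fold lower, adjusted p = 0.0133 from limma) and not with GW5074 (-0.22 ± 0.09, adjusted p = 0.0755). The call ended without the low-potassium 6 h array of letter C (limma, adjusted p = 0.0587), without the 3 h array of letter B (0.0555) and without the mean-variance trend (0.0623). A pair of further Psmb5 probe sets lay near background and were not tested.

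Psmb7 holds the trypsin-like site. With GW5074, Psmb7 measured 1894, 2046 and 2173 at 6 h, against 2286, 2669 and 2377 at 3 h. In low potassium the gene measured 1730.0, 2084 and 2300.1 at 6 h, against 2354, 2453 and 2546 at 3 h. Every 6 h array was below every 3 h array of its treatment in deposited intensity, but the change was not called with GW5074 (-0.12 on the log2 scale, 95% interval -0.33 to 0.09) or in low potassium (-0.15, -0.36 to 0.06).

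Psmb1 and Psmb2, structural subunits of the beta ring, fell with GW5074. With GW5074, Psmb1 measured 2159, 2192 and 2230.2 at 6 h, against 3294, 3111 and 2824 at 3 h. The low-potassium values of Psmb1 were 2534, 2370.0 and 2427 at 6 h, against 3055, 3077 and 2866 at 3 h. The 6 h arrays were below the 3 h arrays in both treatments, by -0.34 ± 0.08 SE on the log2 scale with GW5074 (adjusted p = 0.00665 from limma) and -0.16 ± 0.08 in low potassium (adjusted p = 0.144, not called).

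With GW5074, Psmb2 measured 1197, 1292 and 1388 at 6 h, against 2171, 1927 and 1610.3 at 3 h. Psmb2 in low potassium measured 1499, 1441 and 1286 at 6 h, against 2079.8, 2025 and 1539 at 3 h. The 3 h array of letter C was the lowest of its group in both treatments. The change was -0.45 ± 0.13 SE on the log2 scale with GW5074 (adjusted p = 0.0218 from limma) and -0.30 ± 0.13 in low potassium (adjusted p = 0.107, not called). The Psmb2 call ended without the GW5074 arrays of letter A at 6 h (limma, adjusted p = 0.088) or 3 h (0.0979), without the 3 h array of letter B (0.0684) and without the mean-variance trend (0.0523). Psmb3, the remaining structural subunit, was not called with GW5074 (-0.12) or in low potassium (-0.09).

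The immunoproteasome subunits Psmb8, Psmb9 and Psmb10 replace Psmb5, Psmb6 and Psmb7 in cells exposed to interferon and in immune cells. With GW5074, Psmb10 measured 186, 189.7 and 184 at 6 h, against 276, 240.1 and 268 at 3 h. At 6 h in low potassium it measured 200.1, 225 and 177, against 259, 316 and 277 at 3 h. Psmb10 was lower on every 6 h array than on any 3 h array of its treatment, and it fell with GW5074 (-0.53 ± 0.14 SE on the log2 scale, 1.44-fold lower, adjusted p = 0.0126 from limma) and in low potassium (-0.53 ± 0.14, adjusted p = 0.014). The call with GW5074 ended without the 3 h array of letter A (limma, adjusted p = 0.0509), and that in low potassium ended without the 6 h array of letter C (0.0675) or the 3 h array of letter B (0.072).

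With GW5074, Psmb9 measured 78.3, 145 and 39.3 at 6 h, against 134, 142 and 97.4 at 3 h. Its low-potassium arrays gave 99, 94.2 and 37.4 at 6 h, against 108, 152 and 98.6 at 3 h. The letter C arrays were the lowest at 6 h. In deposited intensity the times overlapped in both treatments, while on the normalised scale they lay apart in low potassium. The log2 changes were not called (-0.58 with GW5074, 95% interval -1.29 to 0.14, and -0.64 in low potassium, -1.36 to 0.07). Psmb8 lay between 4 and 30.3 in the GW5074 6 h arrays, 8.5 and 28.2 in the low-potassium 6 h arrays, 25 and 47.4 in the GW5074 3 h arrays and 10.2 and 31 in the low-potassium 3 h arrays, below the intensity needed for a test.

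Microglia and macrophages are a usual source of immunoproteasome RNA in brain cultures. Of 10 of their marker genes, 0 were listed at 0, 4 were too dim to test and 0 of the 6 tested were called in either treatment (limma, lowest adjusted p 0.148 with GW5074 and 0.157 in low potassium, both of C1qc). Their summed intensity was 435 to 611.7 in the GW5074 arrays at 6 h and 442.7 to 876 at 3 h, and 476.3 to 820.5 in the low-potassium arrays at 6 h and 489.7 to 905.3 at 3 h. Their part in the fall of Psmb10 was not tested.

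The 6 ATPases form the ring that unfolds substrates. 2 of them fell in both treatments, where 14.1% of all genes fell in each. With GW5074, Psmc4 measured 707, 783 and 801 at 6 h, against 1276, 1224 and 1025 at 3 h. In low potassium the gene measured 716, 775 and 746 at 6 h, against 1189, 1336 and 1072 at 3 h. The times did not overlap in either treatment and the distance between them was several times the spread within a group. Psmc4 was 1.49-fold lower at 6 h with GW5074 (-0.57 ± 0.11 SE on the log2 scale, adjusted p = 0.00295 from limma) and 1.56-fold lower in low potassium (-0.64 ± 0.11, adjusted p = 0.00191). Both calls held in all 17 settings tried.

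With GW5074, Psmc5 measured 708, 732 and 697 at 6 h, against 1078, 1087 and 831 at 3 h. The low-potassium values of Psmc5 were 597, 736 and 732 at 6 h, against 1016, 1037 and 832 at 3 h. Again no 6 h array reached the 3 h arrays of its treatment, although the 3 h arrays of letter C were low. Psmc5 fell with GW5074 (-0.46 ± 0.13 SE on the log2 scale, adjusted p = 0.0177 from limma) and in low potassium (-0.45 ± 0.13, adjusted p = 0.0221). With GW5074 the call ended without the 6 h array of letter A (limma, adjusted p = 0.0584) or C (0.0564) or the 3 h array of letter A (0.0679) or B (0.0807), and in low potassium without the 6 h array of letter A (0.0903) or the 3 h array of letter A (0.0736) or B (0.0985). The other 4 ATPases were not called: Psmc3 was at -0.30 with GW5074 and -0.24 in low potassium, and Psmc2 at 0.05 and 0.15. The 3 probe sets of Psmc6 disagreed, with log2 changes of -0.20, -0.15 and 0.19 with GW5074, none called.

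Among the 14 non-ATPase genes of the regulatory particle, 1 fell with GW5074, and 1 fell and 2 rose in low potassium. Of all genes 14.1% fell in each treatment, and 11.5% rose in low potassium. Psmd7 encodes the partner of the deubiquitinase Psmd14 in the lid. With GW5074, Psmd7 measured 747, 859 and 808 at 6 h, against 1149, 1086 and 1076 at 3 h. Psmd7 in low potassium measured 805, 819 and 846 at 6 h, against 1085, 1080.4 and 1042 at 3 h. The times lay apart in both treatments. It fell with GW5074 (-0.42 ± 0.10 SE on the log2 scale, adjusted p = 0.00674 from limma) and in low potassium (-0.34 ± 0.10, adjusted p = 0.0212), and a second probe set fell too (-0.45 and -0.40). The call in low potassium ended when only the 2 groups compared were fitted (limma, adjusted p = 0.0564), and without the 6 h array of letter A (0.0587) or C (0.0555) or the 3 h array of letter A (0.0556) or B (0.0784).

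The 2 non-ATPase genes that rose, Psmd12 and Psmd11, both encode scaffold subunits of the lid. With GW5074, Psmd12 measured 694, 609 and 634 at 6 h, against 508, 561 and 486 at 3 h. At 6 h in low potassium it measured 774, 656 and 721, against 489, 473 and 471 at 3 h. All 6 h arrays were above all 3 h arrays of their treatment. Psmd12 was 1.47-fold higher in low potassium (0.55 ± 0.11 SE on the log2 scale, adjusted p = 0.00412 from limma), a call kept in all 17 settings, and was not called with GW5074 (0.29 ± 0.11, adjusted p = 0.0739).

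With GW5074, Psmd11 measured 1139.5, 1177 and 1240.5 at 6 h, against 1146, 1186 and 1182 at 3 h. Its low-potassium arrays gave 1204, 1314 and 1320.2 at 6 h, against 1157, 1072 and 1011 at 3 h. The times overlapped with GW5074, where the change was 0.06 ± 0.09 SE on the log2 scale (adjusted p = 0.672 from limma), and lay apart in low potassium (0.29 ± 0.09, adjusted p = 0.0405). The Psmd11 call ended in 12 of 17 settings, the most of any time call (adjusted p up to 0.119, without the 3 h array of letter C), among them the removal of any 1 of the arrays except the 3 h array of letter A. A second probe set was not called (0.15 in low potassium). Whether the time changes of Psma3, Psmd12 and Psmd11 differed between treatments is the same test as the difference between the GW5074 effects given below, which called none of them.

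The ubiquitin receptors and the deubiquitinase of the regulatory particle were not called with time. Psmd4, a ubiquitin receptor, was at -0.21 with GW5074 (95% interval -0.49 to 0.06) and -0.25 in low potassium (-0.53 to 0.02). Psmd2, a large scaffold of the base that binds ubiquitin-like proteins, was at -0.21 (-0.45 to 0.04) and -0.26 (-0.50 to -0.01). Psmd14, which removes ubiquitin chains, was at -0.17 (-0.39 to 0.04) and 0.04 (-0.17 to 0.26), and its 3 probe sets ran from -0.29 to 0.11 with GW5074 and from -0.12 to 0.40 in low potassium. The base chaperones Psmd5, Psmd9 and Psmd10, which help build the regulatory particle and leave it, were at -0.16, -0.33 and -0.05 with GW5074 and at 0.06, -0.27 and -0.07 in low potassium, none called.

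Psme1 and Psme2 together form an activator ring, induced by interferon, that opens the core without ubiquitin. Psme2 had the lowest log2 change of the genes called with GW5074. With GW5074, Psme2 measured 310.4, 436 and 319 at 6 h, against 608, 569 and 545 at 3 h. In low potassium the gene measured 352, 427 and 324 at 6 h, against 536, 554 and 612 at 3 h. At 6 h the letter B arrays were the highest in both treatments, yet still below every 3 h array. Psme2 was 1.66-fold lower with GW5074 (-0.73 ± 0.15 SE on the log2 scale, adjusted p = 0.00441 from limma) and 1.55-fold lower in low potassium (-0.63 ± 0.15, adjusted p = 0.0108). The call in low potassium ended without the 6 h array of letter C (limma, adjusted p = 0.0532).

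Its partner Psme1 was not called. With GW5074, Psme1 measured 911, 1112 and 897 at 6 h, against 1127, 1257 and 1125 at 3 h. The low-potassium values of Psme1 were 994, 1116 and 946 at 6 h, against 1025, 1247 and 1309 at 3 h. The times overlapped in low potassium, and the log2 change was -0.23 with GW5074 (95% interval -0.51 to 0.04) and -0.17 in low potassium (-0.44 to 0.11). Psme4, a single-chain activator of the nucleus, had 3 probe sets that disagreed in direction (0.32, -0.18 and -0.29 with GW5074, and 0.52, -0.22 and 0.13 in low potassium), none called. The inhibitor Psmf1, which binds the core, was at 0.01 with GW5074 (-0.26 to 0.29) and 0.09 in low potassium (-0.19 to 0.36).

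Psmg1 to Psmg4 are chaperones that build the alpha ring, Psmg1 working with Psmg2 and Psmg3 with Psmg4. With GW5074, Psmg4 measured 349, 446 and 409 at 6 h, against 635, 629 and 542 at 3 h. Psmg4 in low potassium measured 441, 538 and 373 at 6 h, against 615, 621 and 596 at 3 h. The times lay apart, with the 6 h arrays of letter B the highest of their groups. Psmg4 was 1.51-fold lower with GW5074 (-0.60 ± 0.15 SE on the log2 scale, adjusted p = 0.0106 from limma) and 1.36-fold lower in low potassium (-0.44 ± 0.15, adjusted p = 0.0454).

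Without the 6 h array of letter A the adjusted p of Psmg4 with GW5074 was 0.0582. In low potassium its call ended in 8 of 17 settings, with the removal of any 1 of the arrays except the 6 h array of letter B among them (adjusted p up to 0.195, without the 6 h array of letter C). The other 3 chaperones were not called: Psmg1 was at -0.21 with GW5074 and -0.09 in low potassium, Psmg2 at 0.16 and 0.21, and Psmg3 at -0.25 and -0.15. Of the 2 genes that are not subunits, Psmc3ip, which works in meiotic recombination, was at 0.21 with GW5074 and -0.22 in low potassium, and Psme3ip1, which binds the activator Psme3, at 0.24 and 0.13, none called.

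**Figure D2:**
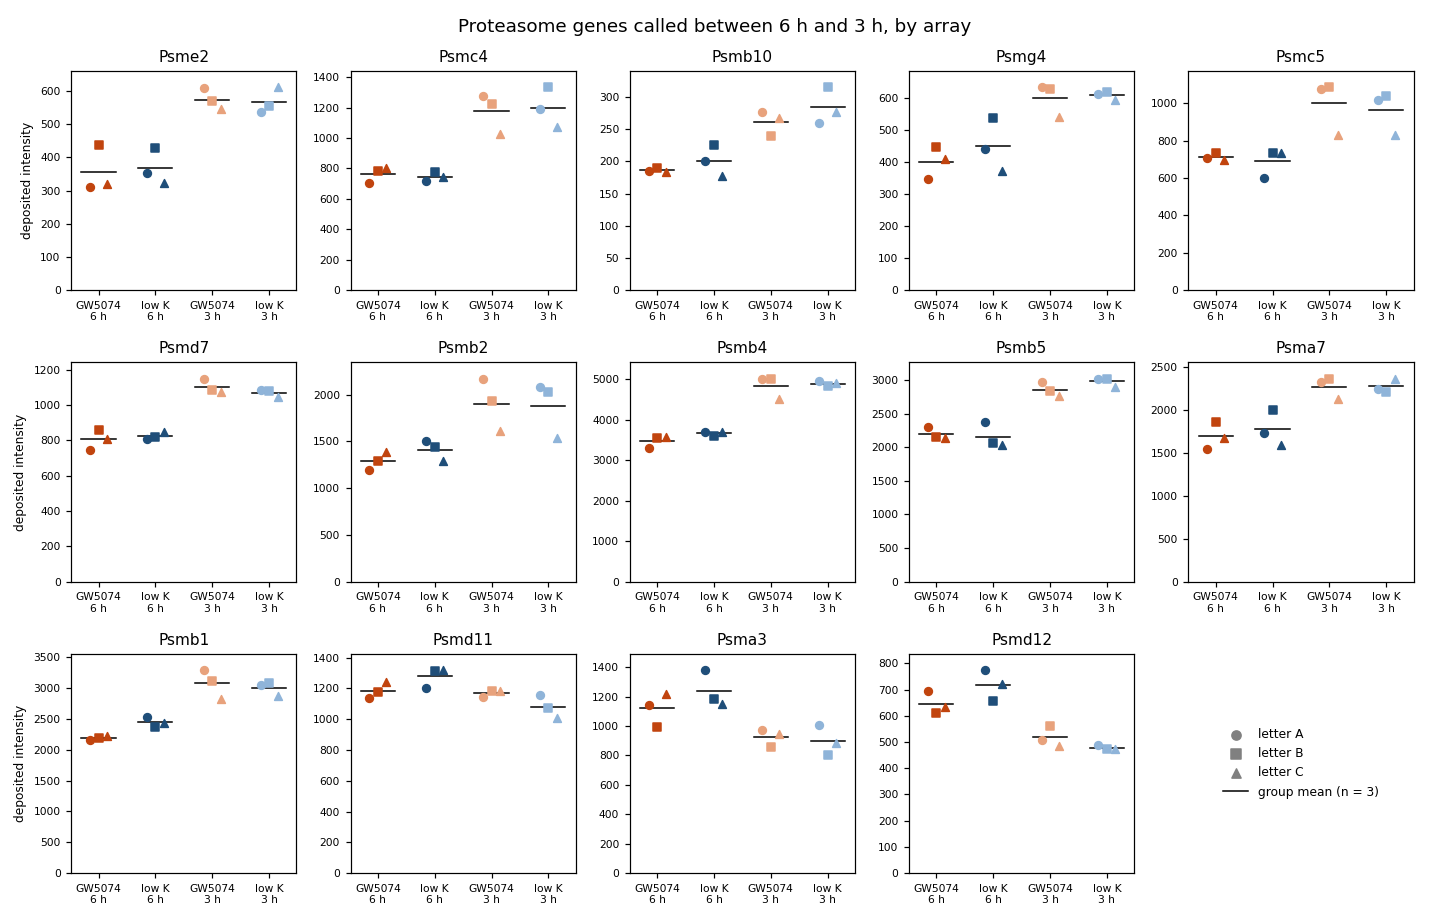
Deposited intensity by array of the 14 genes called between 6 h and 3 h in either treatment, with GW5074 left of low potassium at 6 h and then at 3 h. Markers give the letter and bars the mean of 3 arrays; each axis starts at 0, and in 11 genes the 6 h groups are the lower ones, while Psmd11, Psma3 and Psmd12 have higher 6 h means.

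7 genes fell in both treatments: Psmb4, Psmb10, Psmc4, Psmc5, Psmd7, Psme2 and Psmg4. They are 70% of the 10 that fell with GW5074 and 87.5% of the 8 that fell in low potassium, where the 1031 of all genes that fell in both are 71.3% and 71.2% of those that fell in each. Across the 45 genes, the log2 changes with time in the 2 treatments had a Pearson's r of 0.890 and a Spearman's rho of 0.882, against 0.877 and 0.839 over all genes, and 36 of 45 had the same sign (80%, against 82.1% of all genes). Genes are not independent replicates, and the arrays of a letter deviated together across treatments, so these values are a description.

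**Figure D3:**
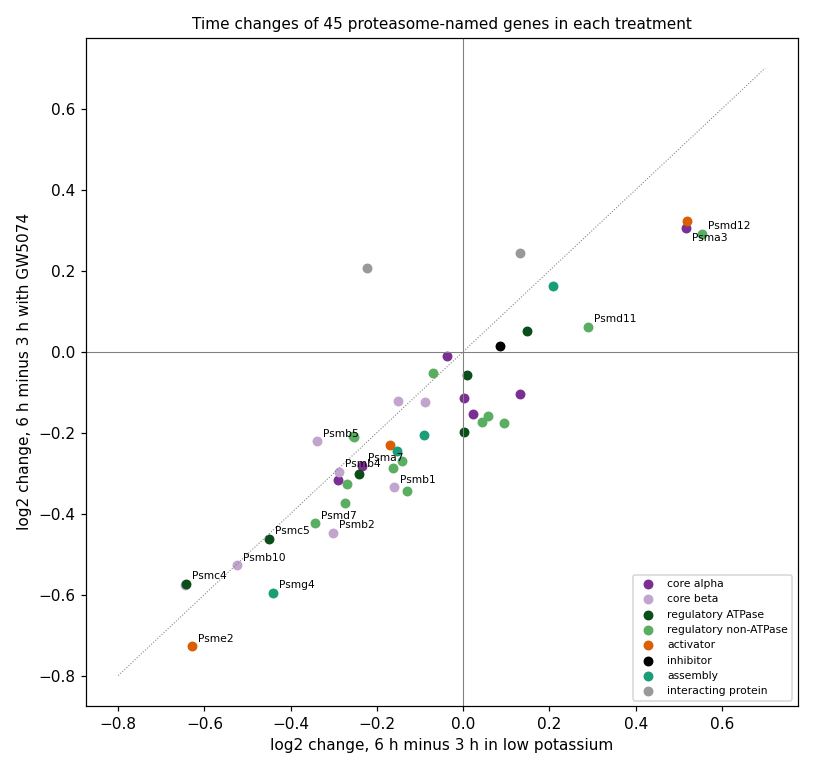
Log2 change between 6 h and 3 h of the 45 genes, in low potassium along the horizontal axis and with GW5074 along the vertical axis. The dotted line marks equal changes, labels give the 14 genes called in either treatment, and colours give the class; 36 genes have the same sign in both.

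Granule neuron markers rose over the same interval. Of 12 listed genes, 11 were on the array, 11 rose with GW5074 and 6 in low potassium, and their summed intensity was 15170 to 18760 in the GW5074 arrays at 6 h and 8169 to 10130 at 3 h, and 14680 to 16810 in the low-potassium arrays at 6 h and 9034 to 11220 at 3 h. None of the 11 was listed at 0. The 3' minus 5' log2 difference of the actin control probe sets, a measure of RNA integrity, was 1.06 to 1.17 in the GW5074 arrays at 6 h and 0.868 to 1.36 at 3 h, and 0.974 to 1.02 in the low-potassium arrays at 6 h and 0.846 to 1.07 at 3 h. Among markers of other cells, the astrocyte gene Gfap rose (1 of 7 tested), and the oligodendrocyte gene Cnp (1 of 6) and the interneuron gene Pvalb (1 of 6) fell, in both treatments, while 0 of 3 endothelial and fibroblast genes were called. The part of any of these in the proteasome changes was not tested.

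Promoter sequence was examined for the genes that fell. RefSeq windows of 300 bases (250 before to 50 after the annotated start, build GRCr8) were found for 42 of the 46 genes, and 15 motifs were counted on both strands. The motifs, and the sequences shown, were chosen with the matches and the array results in view. The letters AAGATGGCG, the core of a site bound by the factor YY1, were in 6 of the 42 windows (14.3%), against 1.93% of 27457 rat promoters: those of Psmb7, Psmc4, Psmc5, Psmd5, Psmd7 and Psmd11. They were in 3 of the 10 windows of genes that fell, 1 of the 2 of genes that rose and 2 of the other 30. The letters CCGGAAG, an ETS factor core, were in 15 windows (35.7%, against 9.22%) and the GC box GGGCGG in 29 (69.0%, against 34.9%). The letters TGACNNNGC, the core of the antioxidant response element that NFE2L1 and NFE2L2 bind, were in 7 (16.7%, against 12.2%), and CCAAT was in 22 (52.4%, against 37.7%). The others were GGAAGTG (28.6%, against 10.1%), which can overlap the ETS core above, the E-box CACGTG (11.9%, against 6.65%), TGACGT (9.52%, against 8.22%) and TGACGTCA, which contains it (2.38%, against 1.91%). TATAAA was in 9.52% (against 14.3%), TGANNNNGC, which covers TGACNNNGC, in 52.4% (against 40.4%), and GCCATNTTG, which overlaps the reverse of AAGATGGCG, in 7.14% (against 3.06%). The proteasome-associated control element of yeast, searched as GGTGGCAAA (0%, against 0.204%), TGGCAAA (2.38%, against 3.75%) and GTGGC (52.4%, against 51.7%), was last. The windows of the 3 genes that fell in both treatments and hold AAGATGGCG are given 5' to 3' on the gene's strand, with that motif in capitals. They lie at chr1:92485011-92485310 on the minus strand (Psmc4), chr10:91687303-91687602 on the plus strand (Psmc5) and chr19:52411267-52411566 on the minus strand (Psmd7). The motif begins at -208 from the annotated start in Psmc4, at 13 in Psmc5 and at -54 in Psmd7.
Psmc4: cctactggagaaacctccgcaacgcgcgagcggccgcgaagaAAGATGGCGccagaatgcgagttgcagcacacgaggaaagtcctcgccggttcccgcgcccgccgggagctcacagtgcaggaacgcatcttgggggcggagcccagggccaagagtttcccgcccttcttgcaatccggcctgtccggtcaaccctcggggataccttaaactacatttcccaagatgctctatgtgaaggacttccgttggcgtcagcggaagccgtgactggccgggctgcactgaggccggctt
Psmc5: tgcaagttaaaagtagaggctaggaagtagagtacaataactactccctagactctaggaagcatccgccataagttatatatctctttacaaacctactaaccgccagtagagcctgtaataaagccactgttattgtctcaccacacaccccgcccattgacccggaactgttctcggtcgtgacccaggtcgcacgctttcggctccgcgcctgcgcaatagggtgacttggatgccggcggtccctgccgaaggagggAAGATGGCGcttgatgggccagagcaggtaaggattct
Psmd7: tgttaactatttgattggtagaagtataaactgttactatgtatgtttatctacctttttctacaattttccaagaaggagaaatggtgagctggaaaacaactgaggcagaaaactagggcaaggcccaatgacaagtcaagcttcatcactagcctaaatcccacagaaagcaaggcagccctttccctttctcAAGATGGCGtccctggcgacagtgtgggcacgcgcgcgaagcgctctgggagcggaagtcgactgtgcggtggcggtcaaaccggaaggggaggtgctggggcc
A match to letters is a description and says nothing of which factor was bound.

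Among 7 regulators of proteasome genes, 1 rose and 1 fell in both treatments. Nfe2l1 encodes the membrane-bound factor that raises subunit transcription when proteasomes are short of capacity. With GW5074, Nfe2l1 measured 263, 231 and 328 at 6 h, against 401, 384 and 352 at 3 h. At 6 h in low potassium it measured 295, 239.6 and 309, against 363, 409 and 404 at 3 h. The times lay apart in both treatments, and Nfe2l1 fell with GW5074 (-0.52 on the log2 scale, adjusted p = 0.0211 from limma) and in low potassium (-0.51, adjusted p = 0.026).

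Ngly1 encodes the glycanase that processes the NFE2L1 protein. With GW5074, Ngly1 measured 482, 344 and 563 at 6 h, against 184, 208 and 237 at 3 h. Its low-potassium arrays gave 536, 352 and 560.0 at 6 h, against 206, 219 and 223 at 3 h. It rose with GW5074 (1.00 on the log2 scale, adjusted p = 0.00283 from limma) and in low potassium (1.03, adjusted p = 0.00284). The letter B arrays were the lowest of the 6 h groups. Nfe2l2, Ddi2, Mafg, Mafk and Maff were not called, Nfe2l2 being at -0.46 with GW5074 (limma, adjusted p = 0.0751) and -0.45 in low potassium (adjusted p = 0.0809).

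Of 11 proteasome partners with other symbols, 2 rose and 3 fell in each treatment. With GW5074, Zfand5 measured 2587, 2134 and 3329.5 at 6 h, against 1330.2, 1372 and 1389 at 3 h. In low potassium the gene measured 2838, 2451 and 3311 at 6 h, against 1480.4, 1402 and 1559 at 3 h. Zfand5, a ubiquitin-binding protein that stimulates the proteasome, thus lay higher on every 6 h array, with log2 changes of 1.07 with GW5074 (adjusted p = 0.000395 from limma) and 1.06 in low potassium (adjusted p = 0.000646). The deubiquitinase Uchl5 rose by 0.46 and 0.47. Txnl1, a thioredoxin-like protein of the regulatory particle, fell (log2 changes of -0.58 and -0.44), as did Fbxo7, a partner of Psmf1 (-0.54 and -0.37). Ecpas, a scaffold of proteasomes under stress, fell with GW5074 (-0.46), and the proteasome-bound ligase Ube3c fell in low potassium (-0.43). The small subunit Sem1, the ubiquitin receptor Adrm1, the assembly factor Pomp, the nuclear import factor Akirin2 and the deubiquitinase Usp14 were not called.

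Of 13 genes of ubiquitin supply and shuttling, 1 rose and 2 fell with GW5074, and 3 rose and 3 fell in low potassium. The shuttle Ubqln2 rose in both (0.77 with GW5074, 0.57 in low potassium), while its relative Ubqln4 (-0.71 and -0.66) and the ligase Stub1 (-0.48 and -0.74) fell in both. Sqstm1 (0.46) and Ufd1 (0.38) rose and Rad23b (-0.26) fell in low potassium. Of 6 antigen processing genes tested, the peptidase Erap1 fell in both (-1.61 and -1.34) and the peptide-loading factor Tapbp in low potassium (-0.90).

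GW5074 was set against low potassium at each time. At 6 h, 0 of the 45 proteasome genes were called by limma without pairs, as for all genes (0% of 10260), and 1 was lower (against 2.05% of all genes) and 0 higher (2.69%) at an unadjusted p under 0.05. With the arrays of a letter taken as pairs, 1 was called lower (against 0.848% of all genes) and 0 higher (against 1.1%), and 8 were lower (against 7.19%) and 0 higher (9.47%) at an unadjusted p under 0.05. Yet the estimates leaned one way: 37 of 45 were below 0 (82.2%, against 46.7% of all genes), with a median of -0.08, where that of all genes was 0.02. Without Psmc3ip and Psme3ip1, 37 of 43 were below 0 (86%). Among the 1785 genes in the same range of intensity, 49.3% were below 0. The shift is small against the SE of a gene, and these counts of direction were chosen after the results were seen.

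By pair, the median GW5074 difference of the 45 genes at 6 h was -0.132 for letter A (36 below 0), -0.0923 for letter B (32) and -0.0329 for letter C (25). At 3 h it was 0.0015, 0.0177 and 0, with 22, 21 and 21 genes below 0. The shares below 0 at 6 h were 80%, 71.1% and 55.6%, against 48.6%, 46.4% and 47.2% of all genes. At 3 h they were 48.9%, 46.7% and 46.7%, against 47.7%, 51.1% and 56%. The size of the median thus differed between pairs and was near 0 in all 3 at 3 h. 15 genes were lower in all 3 pairs at 6 h (33.3%, against 16.7% of all genes) and 3 higher (6.67%, against 20.8%). At 3 h 8 were lower (17.8%, against 15.1%) and 6 higher (13.3%, against 12.2%). On the normalised scale, the 6 h groups lay apart for 4 genes, Psmb1, Psmc2, Psmd8 and Psmd14, all lower with GW5074 (8.89%, against 3.99%), and for 0 higher (against 5.28%).

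**Figure D4:**
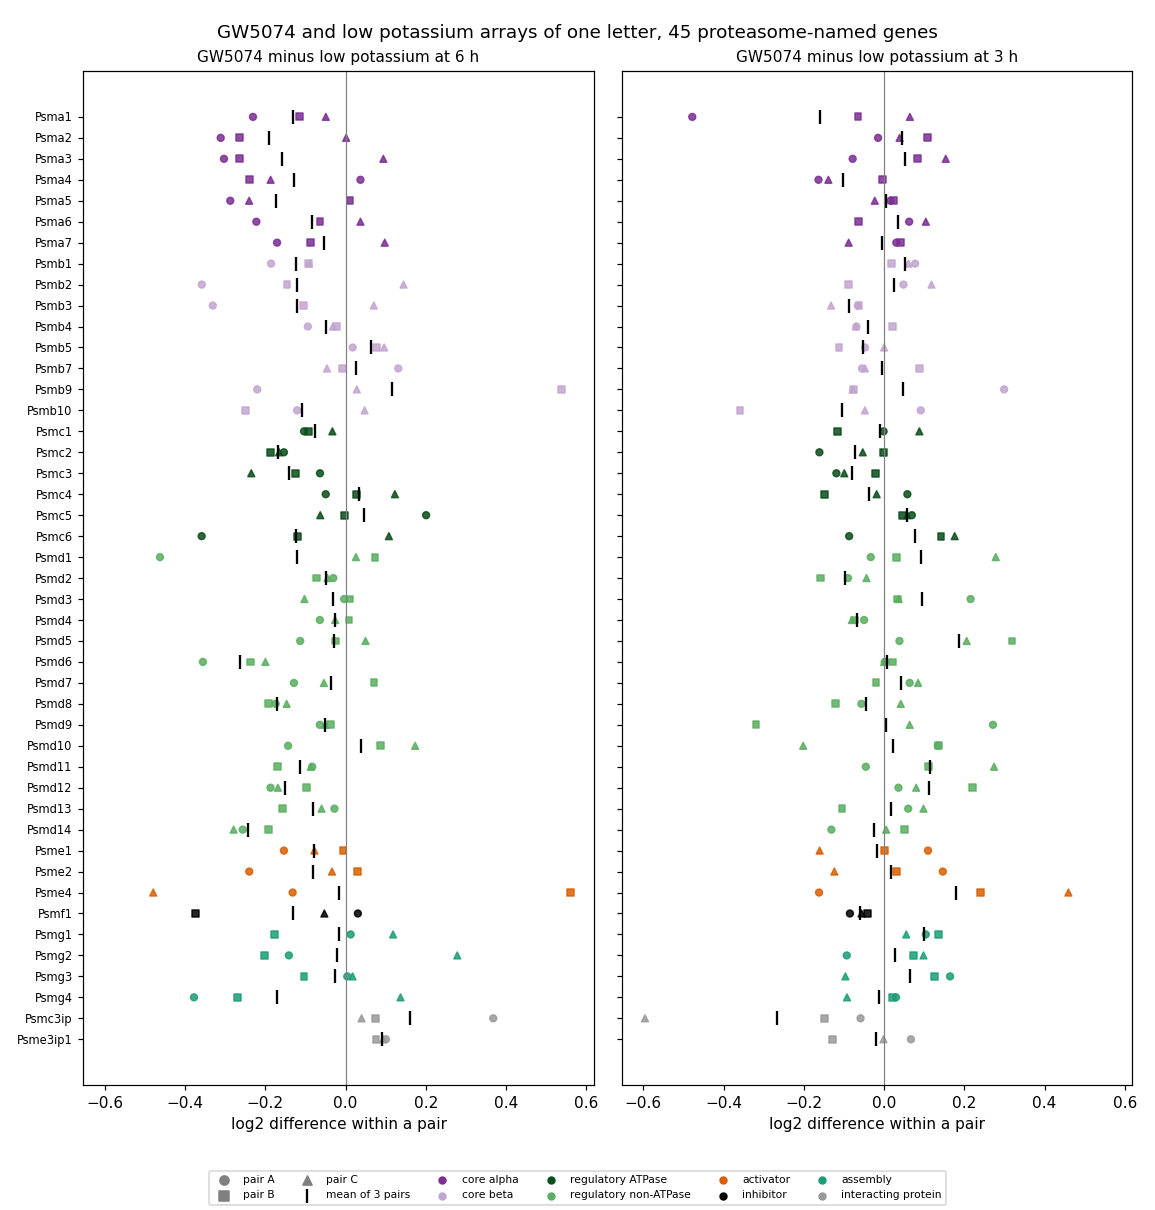
Log2 difference of the GW5074 minus the low-potassium array of each letter, at 6 h on the left and 3 h on the right, for the 45 genes tested. Markers give the letter, colours the class and bars the mean of 3 pairs; 37 means lie below 0 at 6 h and 21 at 3 h.

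The gene called in pairs was Psmd6, a scaffold subunit of the lid. Psmd6 measured 1196, 1153 and 1538 in the GW5074 arrays at 6 h, against 1494, 1358 and 1773 in the low-potassium arrays. The groups overlapped, because the letter C arrays were the brightest of both, but each GW5074 array was below its partner, by pair differences of -0.36, -0.24 and -0.20 on the log2 scale. The mean was -0.26 ± 0.13 SE without pairs (adjusted p = 0.983 from limma) and had an adjusted p of 0.0457 with pairs. With the pair as a random block, which estimates the correlation, limma's adjusted p was 0.158, and with a block by letter over both times it was 0.649. At 3 h it was 0.01. The paired call ended in 9 of 12 settings: without any 1 of the 6 pairs (adjusted p 0.0694 to 0.274, the highest without pair A at 6 h), without the mean-variance trend (0.279), on the authors' scaling (0.0803) and without the filter (0.0879).

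Psmd14, the deubiquitinase of the lid, measured 1165, 1182 and 1329.9 in the GW5074 arrays at 6 h, against 1362, 1337 and 1579.8 in the low-potassium arrays. Every GW5074 array was below every low-potassium array. The log2 difference was -0.24 ± 0.10 SE (adjusted p = 0.983 without pairs, 0.0743 with pairs, limma), and the other probe sets of the gene were at -0.10 each. Psmc2, an ATPase, measured 3016, 2802 and 2824 with GW5074 at 6 h, against 3492, 3216 and 3193 in low potassium, again with no overlap. Its log2 difference was -0.17 ± 0.08 SE (adjusted p = 0.983 without pairs, 0.114 with pairs, limma). Neither passed the threshold. The counts above rest on the brightest probe set of each gene. A dimmer probe set of the ATPase Psmc6 measured 333.7, 371 and 418 with GW5074 at 6 h, against 476, 468 and 592 in low potassium. Its log2 difference was -0.45 ± 0.16 SE (limma, unadjusted p = 0.0123, adjusted p = 0.939 without pairs and 0.0747 with pairs). The brightest Psmc6 probe set was at -0.12 and the remaining one at -0.18.

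By class at 6 h, all 7 alpha subunits were below 0 (median -0.13), as were 5 of 8 beta subunits (-0.08), 4 of 6 ATPases (-0.10), 13 of 14 non-ATPase genes (-0.07), all 3 activators (-0.08), Psmf1 (-0.13) and all 4 chaperones (-0.02). Over all genes 46.7% were below 0, with a median of 0.02. Core and regulatory genes both had medians below 0. These were -0.12 for the 15 core genes and -0.08 for the 24 regulatory, activator and inhibitor genes. By pair, the core median was -0.22 for letter A, -0.0923 for letter B and 0.028 for letter C. That of the 24 genes was -0.121, -0.0548 and -0.057. Of the core genes 3 were lower in all 3 pairs (20%), and of the 24 genes 12 (50%), against 16.7% of all genes. The difference between these classes was not tested. The catalytic subunits Psmb5 (0.06, 95% interval -0.12 to 0.25) and Psmb7 (0.03, -0.18 to 0.23) were above 0. So were Psmb9 (0.12, -0.60 to 0.83), Psmc4 (0.03), Psmc5 (0.04), Psmd10 (0.04) and both genes that are not subunits. The 3' minus 5' difference of the actin controls did not overlap between these groups either, at 1.06 to 1.17 with GW5074 and 0.974 to 1.02 in low potassium, while those of the Gapdh controls overlapped; the part of either was not tested. Some lists of cell markers leaned too. The median log2 difference was 0.16 for 11 granule neuron genes, -0.29 for 6 Purkinje and GABAergic genes and -0.15 for 7 astrocyte genes. It was -0.02 for 6 microglia and macrophage genes, -0.10 for 6 oligodendrocyte genes and -0.05 for 3 endothelial and fibroblast genes. Single genes went against their list, with the GABAergic gene Slc32a1 at 0.29 and the granule neuron genes Zic1, Pax6 and Neurod1 at -0.04, -0.02 and -0.05. Of the genes in these lists, the vesicular glutamate transporter gene Slc17a7 was called, in pairs (0.42, adjusted p = 0.00426 from limma), and measured 2226, 2438 and 2407 with GW5074, against 1728, 1930.5 and 1669 in low potassium. The summed intensities overlapped between the groups, being 15170 to 18760 with GW5074 and 14680 to 16810 in low potassium for granule neuron genes. For Purkinje and GABAergic genes they were 894 to 1013 with GW5074 and 969.7 to 1162 in low potassium, and for astrocyte genes 3104 to 3353 with GW5074 and 2995 to 4742 in low potassium. None of these genes was listed at 0. The part of these markers was not tested.

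At 3 h, 0 proteasome genes were called without pairs (0% of all genes) or with pairs (against 0.00975%), and 0 reached an unadjusted p under 0.05 in either fit, against 0.799% lower and 0.478% higher of all genes without pairs and 3.59% lower and 2.19% higher with pairs. The median was 0.01 and 21 of 45 were below 0 (46.7%, against 52.8% of all genes). The smallest p belonged to Psmc3ip, which measured 58.6, 53.8 and 44.9 with GW5074, against 64.8, 63.1 and 68.6 in low potassium. These dim groups lay apart in deposited intensity, and the difference was -0.27 ± 0.17 SE on the log2 scale (adjusted p = 1 from limma). Psmd5, a base chaperone (0.19), Psmd11 (0.11) and Psma1 (-0.16) followed, none called. These counts rest on each gene's brightest probe set. The dimmest probe set of Psme4 was at 0.46 (limma, unadjusted p = 0.0388 without pairs and 0.0255 with pairs) and was not called. The other Psme4 probe sets were at 0.18 and 0.16.

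The difference between the GW5074 effects at 6 h and at 3 h was not called for any of the 45 genes without pairs (0% of all genes) or with pairs (against 0.185%), 0 reached an unadjusted p under 0.05 without pairs (against 0.955% lower and 2.1% higher of all genes), and 6 did so with pairs, all lower (against 4.96% lower and 8.15% higher). The median was -0.08, with 35 of 45 below 0 (77.8%, against 46.6% of all genes and 51.4% of the 1785 genes of like intensity). Psmd12 was at -0.26 ± 0.16 SE on the log2 scale (adjusted p = 1 from limma, 0.337 with pairs), Psmd11 at -0.23 ± 0.13 (0.363 with pairs) and Psmc3ip at 0.43 ± 0.24 (0.478 with pairs).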

How the data were processed

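Affymetrix rat arrays were read from the deposited tables of 31099 probe sets. The values are linear intensities that the authors scaled so that each array has a trimmed mean of 150, as the deposited values themselves show; the summarising algorithm is not given in the sources read. Probe sets with 1 platform symbol were named (20832), and those with several (436) or none (9780) were not, nor were 57 controls. A gene was represented by the brightest of its probe sets with 1 symbol. Intensities were quantile-normalised, and log2 was taken after 16 was added. Probe sets under the 40th percentile of mean intensity were removed. The remaining 18625 were fitted together over all 4 groups with limma 3.58.1 (R 4.3.3, trend, 8 residual degrees of freedom). Random blocks used statmod 1.5.0, and Python 3.11.15 and matplotlib 3.10.9 were also used. The 5 comparisons set GW5074 against low potassium at 6 h and at 3 h, 6 h against 3 h in each treatment, and the difference of the GW5074 effects; adjustment was within each over all probe sets. A second fit took the arrays of a letter within a time as pairs (4 residual degrees of freedom): their deviations from group means correlated at 0.209 to 0.65, each array matching best with its own letter in 6 of 6 pairs, while letters across times correlated at -0.0668 to 0.182. Genes given array by array were those called in a comparison, up to 10 per direction, or the 3 of smallest p, plus catalytic, inducible, activator, inhibitor, assembly and ubiquitin-handling genes. Members and lists were chosen with earlier results of these data known. Counts of direction, groups that lie apart, pair medians, the comparison with genes of like intensity and most settings of the paired fit were added after results were seen. The fits were tested on simulated data with 200 changed probe sets. For GW5074 at 6 h, a log2 change of 0.5 was recovered in 1% without pairs and 13% with pairs. A change of 1 was recovered in 73% and 95.5%. For time in low potassium, the shares were 4% for 0.5 and 70% for 1. In the data far more genes were called for time in low potassium (2624 of 10260), which makes the adjusted threshold easier to pass. The proteasome genes also had a smaller median SD than all genes (0.121 against 0.219). The simulated shares therefore need not hold for them. A gene that was not called was still not shown to be unchanged. The alternatives were other scaling, pseudocount, filter, trend, fitted groups, probe-set choice, blocks and left-out arrays. The number of arrays limits precision.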

Additional observations from a re-analysis of the deposited data

Results flagged for a closer look

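For 3 of the 45 proteasome genes, the GW5074 minus low-potassium difference had one sign in all 3 pairs at 6 h and the opposite sign in all 3 pairs at 3 h. The difference between these effects, 6 h minus 3 h, was -0.1749 on the log2 scale for Psmb1, -0.2635 for Psmd12 and 0.4286 for Psmc3ip. Tested in limma it was called for none of them, with an adjusted p of 1 for each without pairs and of 0.33 (Psmb1), 0.337 (Psmd12) and 0.478 (Psmc3ip) with pairs. Psmb1 and Psmd12 were lower with GW5074 at 6 h and higher at 3 h, while Psmc3ip, which is dim and encodes no proteasome subunit, was higher at 6 h and lower at 3 h.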

How the results depend on the processing

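No setting reversed the direction of a called gene, and the medians of the 5 comparisons moved by less than the spread between arrays. The median GW5074 difference at 3 h, 0.00526, had no settled sign: it was negative without GW5074 array A (-0.0119) or B (-0.0013) or low-potassium array A (-0.00595) or C (-0.0478). At 6 h the median GW5074 difference ran from -0.102 to -0.0587 and the count below 0 from 32 to 38. The count of genes called for GW5074 at 6 h was 1 with the replicate block within time (Psmd6). That paired count was 0 without the mean-variance trend, 0 on the authors' scaling, 0 without the filter, and 0 to 0 over the 6 pairs left out in turn; the first 3 were chosen after seeing the data. In low potassium, the genes higher at 6 h numbered 1 to 3 and those lower 3 to 10 over the arrays left out in turn, and those lower were 5 without the trend and 12 on the authors' scaling. With GW5074, those higher numbered 0 to 1 and those lower 6 to 12 over the arrays left out in turn. A replicate block by letter over both times, which the correlations across times do not back as a pairing, gave 16 lower and 1 higher with GW5074, and leaving out both 6 h arrays of letter B gave 1 higher. With the pair as a random block, 12 were lower and 0 higher with GW5074, and 8 lower and 2 higher in low potassium. The causes were not tested. With 3 arrays a group, small shifts of single genes had intervals that reach 0, and dim genes such as Psmb8 gave no test.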
